A study of Mus musculus with 2 samples.

Results

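Ccl5-high CD8 T cells of the pancreatic islet are T cells that carry the co-receptor CD8 and many transcripts of Ccl5, the chemokine RANTES, which effector and memory T cells store and release. They were picked by transcript counts, so Ccl5 and the other genes of the rule are given below as a description. A member had at least 500 detected genes, at most 10% mitochondrial UMIs (unique molecular identifiers, which count captured transcripts), at least 2 UMIs of Cd8a and Cd8b1, at least 1 UMI of the CD3 genes Cd3d, Cd3e and Cd3g, 0 of Cd4 and at most 1 of the B-cell and macrophage genes Cd79a, C1qa and Lyz2. Among the CD8 T cells gated this way, a member also had at most 1 UMI of the proliferation genes Mki67 and Top2a, 0 of Entpd1 and Havcr2, at most 1 of Xcl1 and Cd160, and at least 4 of Ccl5. The rule found 964 members among 3652 gated CD8 T cells and 22466 barcodes that passed the filters, out of 24413 in all.

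The cells came from female mice aged 12 weeks of the NOD strain, which develops autoimmune diabetes, and from NOD.Cxcl16-/- mice, in which Cxcl16 is labelled as deleted. CXCL16 is the ligand of the chemokine receptor CXCR6. Islets were hand-picked and dispersed without enzymes, and live CD45+CD31- cells, leukocytes without endothelial cells, were sorted and sequenced by 10x Genomics 3′ chemistry version 3.1. Each genotype had 1 library, and the labels do not say how many mice stand behind it. With 1 library a group, no difference between the libraries could be tested. Every interval below is a 95% interval of counting error only, and values joined by "and" or "to" give the WT NOD library first and the library labelled NOD.Cxcl16-/- second.

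CD8 T cells recognise peptides on MHC class I and, once activated, kill target cells with granzymes and perforin and release interferon gamma and the chemokines CCL3, CCL4 and CCL5. In NOD mice they enter the islets, recognise beta-cell peptides such as those of insulin and take part in beta-cell loss. After activation, some become memory cells, which re-express the interleukin-7 receptor for survival and keep granzyme K and killer lectin-like receptors, while cells under lasting antigen exposure gain inhibitory receptors and Entpd1 or Havcr2. Of the genes that named these cells, Hopx encodes a homeodomain-only cofactor found in effector and memory T cells, Gzmk a granzyme, Klrc1 the inhibitory receptor NKG2A, Il7r the alpha chain of the interleukin-7 receptor and Il18rap a chain of the interleukin-18 receptor.

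These 6 genes lie on 6 chromosomes of the mouse build GRCm38, in GENCODE release M21. Ccl5 spans chr11:83525778-83530518 on the minus strand, Hopx chr5:77086988-77115121 (minus), Gzmk chr13:113171608-113225908 (minus), Klrc1 chr6:129666015-129678973 (minus), Il7r chr15:9505788-9530176 (minus) and Il18rap chr1:40515362-40551705 (plus). Start-site windows, from 250 bases before to 50 after, were found in RefSeq (GRCm38.p6) for 5 of the 6, in 6 windows because Hopx has a pair of starts. Both strands were searched for the T-box letters GGTGTGA, the core bound by T-bet and Eomes, and for the RUNX letters TGTGGT. The 250 bases before the starts of Gzmk and Klrc1 are shown because these are the markers with a match there, with the matched letters in capitals (for Klrc1 the RUNX letters read on the opposite strand).
Gzmk, chr13:113180966-113181215, minus strand: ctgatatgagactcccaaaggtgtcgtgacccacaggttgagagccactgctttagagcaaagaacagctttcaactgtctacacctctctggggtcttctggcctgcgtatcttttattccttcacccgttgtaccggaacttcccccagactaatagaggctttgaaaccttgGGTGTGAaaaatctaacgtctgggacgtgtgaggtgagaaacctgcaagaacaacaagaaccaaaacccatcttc
Klrc1, chr6:129678974-129679223, minus strand: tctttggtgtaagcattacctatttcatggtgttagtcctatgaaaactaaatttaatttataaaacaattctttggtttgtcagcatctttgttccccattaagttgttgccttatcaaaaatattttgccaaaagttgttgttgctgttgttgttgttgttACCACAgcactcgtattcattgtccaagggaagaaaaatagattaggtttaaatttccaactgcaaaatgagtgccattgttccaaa
The T-box match of Gzmk begins 75 bases before the RefSeq start, and the same letters were in 3.98% (1307) of all 32851 windows. That start lies inside the GENCODE span of Gzmk, whose upstream end on the minus strand is at 113225908. The RUNX match of Klrc1 begins 87 bases before the start, and RUNX letters were in 16.8% (5506) of all windows. Il7r and Il18rap had a RUNX match in the transcribed end of the window, and neither Hopx window held a match to either motif. A match is a description of the letters and shows no binding.

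The libraries held 13859 and 10554 barcodes with medians of 3808 and 5054 UMIs, and the members had medians of 4093 and 5135.5 UMIs and 1585 and 1869.5 detected genes. Members with fewer than 2000 UMIs made up 18.7% (119 cells) and 2.13% (7 cells). Cxcl16 itself was counted at 103 and 102 CPM (UMIs of a gene per 1000000 UMIs) over all barcodes, with 9668 and 10062 UMIs. That goes against the deletion in the second label, although the files do not show whether these 3′ tags lie outside the deleted part, so this library keeps the name on its label here and no difference is ascribed to the genotype. The libraries shared 45 barcode sequences, none of them a member in either library. A doublet score marked 28 (4.40%) and 8 (2.44%) of the members as likely doublets, and these were kept.

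Ccl5 counts ran from 4 to 587 UMIs per member with a median of 60 in the WT NOD library, and from 4 to 405 with a median of 73 in the library labelled NOD.Cxcl16-/-. Most members stood far above the threshold: 59.9% (381 cells) and 71.3% (234 cells) had at least 40 Ccl5 UMIs. The Ccl5-low CD8 T cells, which met every other condition but had at most 3 Ccl5 UMIs, mostly had 0 (199 of 311 and 193 of 252). Just outside the threshold, 42 and 17 cells had 2 or 3 Ccl5 UMIs, and just inside it 36 and 7 cells had 4 or 5. In the WT NOD library, the cells just outside and just inside the edge had Hopx at 31.7 and 23.8 CPM and Gzmk at 42.2 and 63.6 CPM, on 3 to 8 UMIs each. Il7r stood at 280 CPM (53 UMIs) just outside and 103 CPM (13 UMIs) just inside, and Lef1 at 396 and 262 CPM. As a background, Ccl5 was counted in B cells, which are not a main source of it: 29.7% (27.5% to 32.0%) and 15.8% (14.3% to 17.5%) of them, at medians of 4564 and 4705 UMIs, had at least 1. B cells with at least 4 made up 2.01% (33 of 1641) and 0.762% (15 of 1969).

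**Figure D1:**
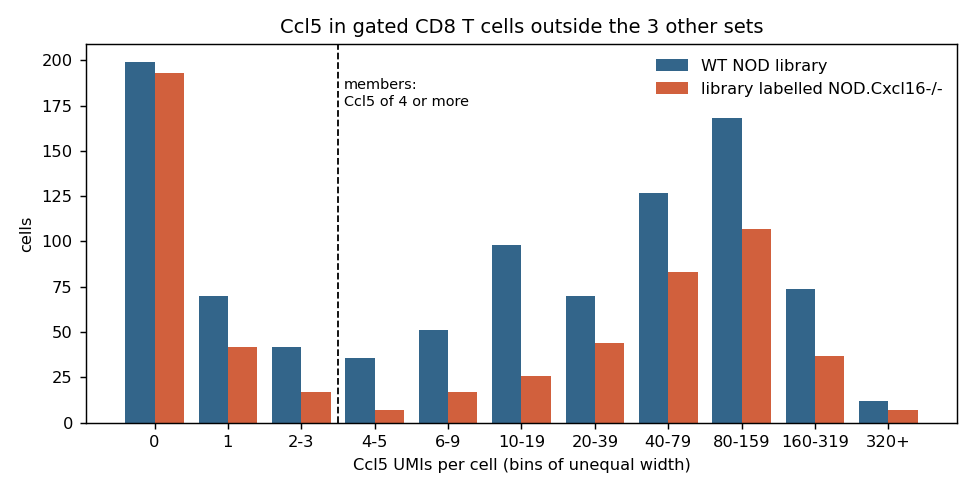
Number of cells (y axis) by Ccl5 UMIs per cell, in bins of unequal width (x axis), among gated CD8 T cells outside the cycling set and the sets with Entpd1 or Havcr2 and with Xcl1 or Cd160, with bars for each library and a dashed line at the threshold of 4 UMIs. The tallest bars stand at 0 (199 and 193 cells), and among the members the tallest bin in both libraries is 80 to 159 UMIs (168 and 107 cells), with a lower rise at 10 to 19 UMIs in the WT NOD library (98 cells) and 42 and 17 cells just left of the line and 36 and 7 just right of it.

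The members made up 28.9% (27.0% to 30.8%; 636 of 2203) of the gated CD8 T cells in the WT NOD library and 22.6% (20.5% to 24.9%; 328 of 1449) in the library labelled NOD.Cxcl16-/-. The difference was -6.23 percentage points (-9.07 to -3.34), but its size moved with the rule. It was -1.29 points with at least 20 Ccl5 UMIs, -3.17 points over barcodes of at least 2000 UMIs and -9.56 points with the thinned gate, in which the rule was applied after each barcode had been drawn down to 2000 UMIs and shallower barcodes left out. The other sets were the cells with at least 2 UMIs of the proliferation genes (21.3% and 17.6%), the non-cycling cells with Entpd1 or Havcr2 (16.3% and 16.8%), those with at least 2 UMIs of Xcl1 and Cd160 (19.4% and 25.6%) and the Ccl5-low cells (14.1% and 17.4%).

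Of the other 5 markers, 4 marked the members against the Ccl5-low cells, and Il7r did not. Hopx stood at 279 CPM in the members of both libraries and at 11.7 and 10.1 CPM in the Ccl5-low cells. Gzmk stood at 313 (293 to 335) and 286 (263 to 312) CPM, against 18.8 and 19.4 CPM. Klrc1 stood at 183 (167 to 199) and 154 (137 to 173) CPM, against 16.9 and 13.2 CPM, and Il18rap at 61.1 and 57.5 CPM, against 10.4 and 8.53 CPM. Il7r was as high in the Ccl5-low cells (272 and 327 CPM) as in the members (251 and 343 CPM), so it separated the members only from the cells with Entpd1 or Havcr2 (60.1 and 87.4 CPM) and with Xcl1 or Cd160 (89.3 and 112 CPM). Against all 3 of these sets, only Hopx of the 5 markers was at least 2-fold higher in both libraries, and its calls against the sets with Entpd1 or Havcr2 and with Xcl1 or Cd160 each ended in 3 alternatives. The high Il7r of the Ccl5-low cells goes against it as a mark of memory here. Klrc1, by contrast, was as high in the cells with Entpd1 or Havcr2 (204 and 165 CPM). Klrc1, Klrc2 and Klrc3 are near copies, so their counts could be split between them.

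**Figure D2:**
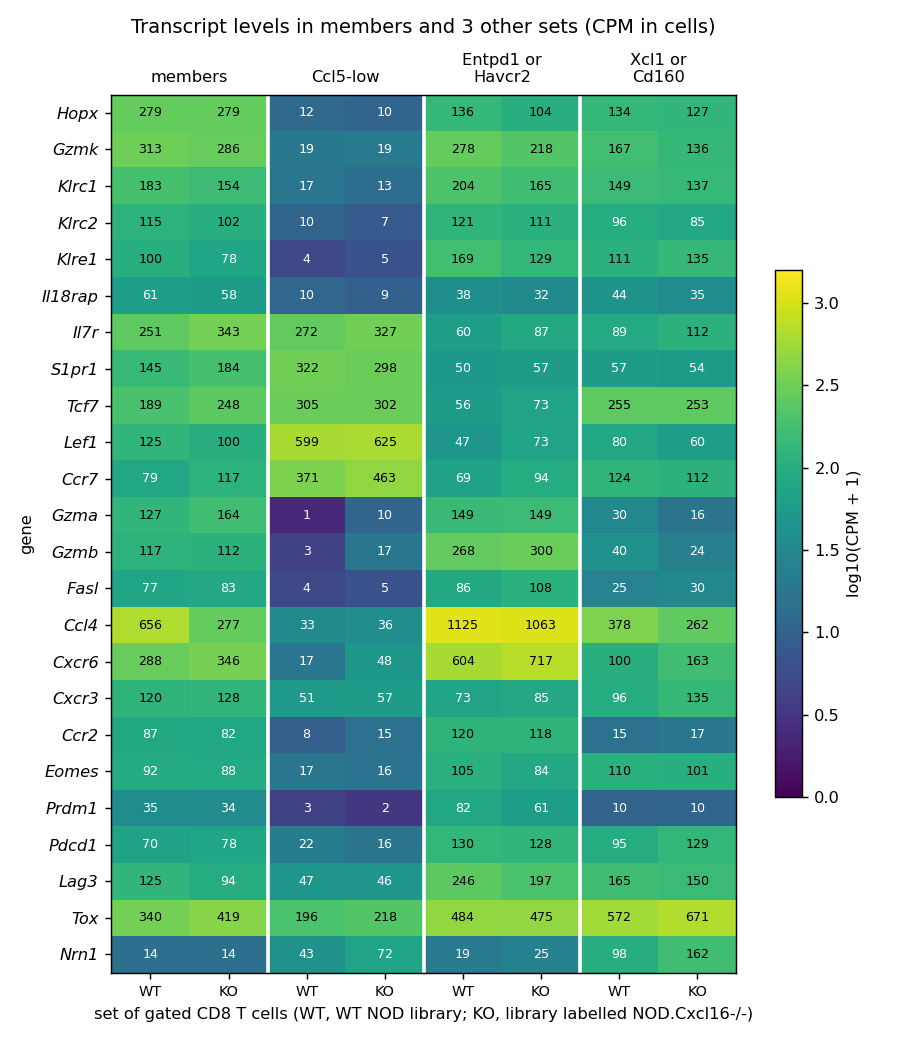
CPM of the markers and other genes (rows) in the members and in the sets called Ccl5-low, Entpd1 or Havcr2, and Xcl1 or Cd160 (column pairs), with the WT NOD library as WT and the library labelled NOD.Cxcl16-/- as KO; each cell of the plot holds its CPM and is coloured by log10(CPM + 1). Hopx stands at 279 CPM in the members of both libraries and at 136 CPM or less elsewhere, while Il7r is as high in the Ccl5-low cells as in the members.

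A gene was called between sets when the CPM of the summed UMIs, with 1 CPM added, differed at least 2-fold in the same direction in both libraries and averaged at least 20 CPM. Because the sets were cut from the same cells by the rule, these calls describe the sets and were not tested, and the 3 comparisons share the member cells. Against the Ccl5-low cells, 213 of 5362 genes (3.97%) were called, 129 higher (2.41%) and 84 lower (1.57%).

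Of 13 cytotoxic genes tested, 7 were higher in the members than in the Ccl5-low cells, none was lower and the other 6 were not called. Gzma, the most changed, stood at 127 and 164 CPM against 1.30 and 10.1 CPM, a log2 ratio of 5.798 and 3.90. The values of the Ccl5-low cells rest on only 2 and 13 UMIs. Only 9.75% (62 cells) and 10.1% (33 cells) of the members had a Gzma UMI, and 10 cells held 65.7% and 87.2% of these UMIs. A single cell held 134 of the 305 Gzma UMIs in the library labelled NOD.Cxcl16-/-, and 49 of the 361 in the other. Gzmb stood at 117 and 112 CPM against 3.24 and 17.1 CPM, and Fasl, the death ligand, at 77.2 and 83.3 CPM against 3.89 and 5.43 CPM. Nkg7, a protein of cytotoxic granules, stood at 1874 and 1681 CPM against 540 and 505 CPM. Serpinb9 and Serpinb6b, inhibitors that guard the cell from its own granule proteases, were also higher, but neither reached 2-fold in both libraries with the thinned gate. Perforin (Prf1) was at 52.3 and 65.6 CPM against 28.5 and 26.4 CPM and was not called, nor was Srgn, the granule proteoglycan serglycin, at 1306 and 1332 CPM against 1070 and 1098 CPM.

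All 6 killer lectin-like receptor genes tested were higher in the members than in the Ccl5-low cells. Klrc1 and Klrc2 encode NKG2 chains, Klrd1 their partner CD94 and Klrk1 the activating receptor NKG2D. Klrk1 stood at 168 and 118 CPM against 17.5 and 13.2 CPM, Klre1 at 100 and 77.9 CPM against 3.89 and 5.43 CPM, and Klrc2 at 115 and 102 CPM against 9.72 and 6.98 CPM. Klrd1 was lower in range, 385 and 262 CPM against 165 and 114 CPM. Klra1 was higher too, but did not keep its call with the thinned gate. Compared with the cells with Entpd1 or Havcr2, none of 7 such genes tested was higher in the members and 1 was lower. Compared with those with Xcl1 or Cd160, none of 6 was called. Over all tested genes, 1.59% were called in the first of these comparisons and 1.03% in the second. Counts over 6 or 7 genes therefore say little about these receptors there.

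Of 9 cytokine and chemokine genes tested, 3 were higher in the members (Ccl4, Ccl3 and Ifng) and 1 lower. Ccl4 stood at 656 and 277 CPM against 33.1 and 35.7 CPM, and Ccl3 at 56.5 and 24.2 CPM against 5.19 and 3.88 CPM. Ifng was at 205 and 139 CPM against 48.6 and 44.2 CPM, a call that ended with the thinned gate. Tnfsf8, the ligand of CD30, was lower, 13.3 and 8.06 CPM against 45.4 and 121 CPM, and Cxcl10, a chemokine induced by interferon, stood at 97.2 and 52.1 CPM against 163 and 164 CPM and was not called. Of 14 genes of residency and tissue exit, 3 were higher (Cxcr6, Rgs1 and Cxcr3) and 2 lower, and the call of Cxcr3 ended with the thinned gate and by the mean CPM of each cell. Cxcr6, the receptor for CXCL16, stood at 288 and 346 CPM against 16.9 and 48.1 CPM. Of the 16 memory and homing genes tested, 7 were higher and none lower, among them the chemokine receptor Ccr2 (86.7 and 81.7 CPM against 8.43 and 14.7 CPM) and the transcription factor Eomes (91.6 and 88.1 CPM against 16.9 and 15.5 CPM). Rgs1, a brake on chemokine receptor signals and a gene of tissue-resident T cells, stood at 654 and 778 CPM against 157 and 220 CPM. The residency genes Cd69 (355 and 285 CPM against 487 and 499 CPM) and Itgae (13.3 and 28.5 CPM against 30.5 and 31.0 CPM) had lower values in the members and were not called. Itga1, the collagen-binding integrin CD49a, had 71 and 43 UMIs in the members and 0 in the Ccl5-low cells. Set against 3 UMIs over that set, it was at least 12.8-fold and at least 9.94-fold higher.

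Genes of naive and central memory cells, which circulate through lymph nodes, were lower: 7 of 16 tested were lower and none higher. Ccr7, a chemokine receptor for entry into lymph nodes, stood at 78.6 and 117 CPM in the members against 371 and 463 CPM. Lef1, a transcription factor of naive T cells, stood at 125 and 100 CPM against 599 and 625 CPM. Igfbp4 and Dapl1, genes of naive cells, stood at 12.3 and 4.84 CPM against 141 and 153 CPM, and at 36.2 and 45.1 CPM against 349 and 256 CPM. Tcf7, the transcription factor TCF-1 shared by naive and memory cells, was 189 and 248 CPM against 305 and 302 CPM, and was not called.

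Of 16 cytokine receptor genes tested, 3 were higher and 3 lower. Both chains of the interleukin-18 receptor (Il18rap and Il18r1) and Il10ra were higher, and Il6ra, Il6st and Il4ra were lower. With the thinned gate 5 of these 6 calls ended, and only that of Il6ra held in all 13 alternatives. Ifngr1, the first chain of the interferon gamma receptor, was not called, at 404 and 611 CPM against 371 and 512 CPM. Ifngr2, its second chain and no member of that list, was 7.02 and 6.45 CPM in the members against 77.8 and 82.9 CPM. Of the interferon-response genes, 3 of 23 were lower (Igtp, Gbp2 and Gbp4) and 1 higher (Isg20), all 4 lost with the thinned gate and Gbp4 in 3 further alternatives. Iigp1, a GTPase induced by interferon gamma, stood at 19.0 and 13.4 CPM against 110 and 105 CPM. Pdcd1, Lag3 and Tigit, 3 of 11 inhibitory receptors tested, were higher, each lost with the thinned gate. Lag3 kept its call in only 7 of the 13 alternatives. Nrn1, a gene linked to anergy, was lower.

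Against the cells with Xcl1 or Cd160, 56 of 5455 genes (1.03%) were called, 26 higher (0.477%) and 30 lower (0.55%). Xcl1 is a chemokine of activated and progenitor-like T cells that draws cross-presenting dendritic cells. The members were higher in 4 of 14 cytotoxic genes. Gzma stood at 127 and 164 CPM against 30.4 and 16.1 CPM, Gzmm at 39.7 and 26.3 CPM against 8.27 and 7.52 CPM, Gzmb at 117 and 112 CPM against 40.02 and 24.0 CPM, and Fasl at 77.2 and 83.3 CPM against 25.1 and 30.1 CPM. Ccr2 was 86.7 and 81.7 CPM against 14.9 and 16.8 CPM. Il7r and the tissue exit receptor S1pr1 (145 and 184 CPM against 57.2 and 54.0 CPM) were higher, as were the transcription factors Prdm1 (35.5 and 34.4 CPM against 9.59 and 9.66 CPM) and Klf2. Il7r and Gzma did not keep their calls with the thinned gate.

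Lower in the members were Nrn1 (14.0 CPM in both libraries against 97.9 and 162 CPM), the costimulatory ligand Tnfsf4 (8.43 and 10.7 CPM against 43.7 and 65.5 CPM), the costimulatory receptor Tnfrsf9 (46.0 and 80.1 CPM against 168 and 214 CPM) and Cd200 (72.0 and 57.5 CPM against 205 and 194 CPM). Tcf7 did not separate these sets, at 189 and 248 CPM against 255 and 253 CPM.

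Against the cells with Entpd1 or Havcr2, 88 of 5522 genes (1.59%) were called, 25 higher (0.453%) and 63 lower (1.14%). In this comparison the median log2 ratio over all tested genes was -0.11 and -0.06. The members were higher in genes of survival and circulation, 5 of the 13 naive and central memory genes tested, among them Il7r (251 and 343 CPM against 60.1 and 87.4 CPM), Tcf7 (189 and 248 CPM against 56.0 and 73.1 CPM), S1pr1 (145 and 184 CPM against 50.03 and 56.8 CPM) and Klf2 (652 and 619 CPM against 202 and 256 CPM). Hopx was 279 CPM in both libraries against 136 and 104 CPM, a call that ended in 3 alternatives.

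Of 13 cytotoxic genes tested, only Gzmb was called lower in the members and none higher. The median log2 ratio over these 13 was -0.23 and -0.27, against -0.11 and -0.06 over all tested genes. Gzmb stood at 117 and 112 CPM against 268 and 300 CPM, and with the thinned gate its log2 ratio was 0.23 in the WT NOD library. Gzma stood at 127 and 164 CPM against 149 CPM in both libraries, and Gzmk at 313 and 286 CPM against 278 and 218 CPM. Cxcr6 was lower, 288 and 346 CPM against 604 and 717 CPM, a call that ended in 4 alternatives. Pdcd1 (69.5 and 77.9 CPM against 130 and 128 CPM), Lag3 (125 and 94.1 CPM against 246 and 197 CPM) and Ccl4 (656 and 277 CPM against 1125 and 1063 CPM) had lower values but did not all reach 2-fold in both libraries and were not called.

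Many of the genes lower in the members here belong to myeloid cells, and all 3 myeloid markers tested were lower. Rnase6 stood at 7.72 and 4.30 CPM against 47.0 and 49.4 CPM, and Tyrobp, a signalling adaptor of myeloid and natural killer cells, at 37.6 and 18.3 CPM against 175 and 204 CPM. The call of Rnase6 held in all 13 alternatives, and that of Tyrobp ended with likely doublets removed and by the mean CPM of each cell. The 11 myeloid markers summed to 1357 and 1003 CPM in the members and to 3648 and 6801 CPM in the cells with Entpd1 or Havcr2. Their part in these differences was not tested, and with likely doublets removed the share of called genes that were higher in the members went from 28.4% to 53.0%. By the mean of each cell's CPM it was 54.3%.

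Markers of other lymphocytes were low in the members but not all absent. The 12 natural killer cell markers summed to 403 and 428 CPM, against 11298 and 16510 CPM in natural killer cells (45 and 32 cells). Those cells were picked by their Ncr1 and Klrb1c UMIs, and Ncr1 is on the list, so part of their sum was fixed by the pick. The markers summed to 208 and 247 CPM in the Ccl5-low cells and 1149 and 1404 CPM in those with Entpd1 or Havcr2. In the cells with Xcl1 or Cd160 the sums were 1764 and 2277 CPM. Ncr1, which defines natural killer cells, was at 1.40 and 0 CPM, and 0 of 1860668 UMIs in the second library allows up to 1.61 CPM by 3 counts. Of these markers 1 and 4 were at 0. The 13 markers of gamma-delta and innate-like T cells summed to 275 and 219 CPM against 42.8 and 48.8 CPM in the Ccl5-low cells, with 1 and 5 at 0. The sum lay mostly in Tcrg-C2 (102 and 81.7 CPM), Tcrg-C4 (55.8 and 51.1 CPM) and Trgv2 (94.1 and 68.8 CPM), while Trdc, the constant region of the delta chain, was at 11.2 and 4.84 CPM. All 3 gamma-chain genes were higher in the members than in the Ccl5-low cells, but none was called against the other 2 sets. The 13 markers summed to 311 and 329 CPM in the cells with Entpd1 or Havcr2. In those with Xcl1 or Cd160 the sums were 277 and 315 CPM, so these transcripts did not set the members apart from either set. B and plasma cell markers summed to 646 and 780 CPM, mostly Igkc.

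T-cell receptor variable genes were caught in few cells, because 3′ tags seldom reach them. Trav16n made up 25.8% (20.6% to 31.5%; 68 of 264) and 24.6% (17.4% to 33.1%; 31 of 126) of the alpha-chain variable UMIs of the members, and 26.5% and 24.3% of those of the Ccl5-low cells, values inside the intervals of the members. Trav8d-1 made up 10.2% (27 of 264) in the members of the WT NOD library against 1.36% in its Ccl5-low cells, but 2.38% (3 of 126) against 2.91% in the other library. Trbv3 made up 12.2% (7.61% to 18.2%; 20 of 164) and 22.1% (13.9% to 32.3%; 19 of 86) of the beta-chain variable UMIs of the members, against 3.03% and 8.24% in the Ccl5-low cells. Trbv12-2 made up 23.2% (38 of 164) and 9.30% (8 of 86), against 16.2% and 27.1% in the Ccl5-low cells, so its order was opposite in the libraries. These shares count UMIs, not clones.

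The members were not uniform. After thinning each cell to 2000 UMIs, which left out 119 and 7 shallower cells, Nkg7 was found in 90.1% (87.2% to 92.6%) and 91.0% (87.3% to 93.9%) of the members, Gzmk in 43.1% (38.8% to 47.5%) and 36.4% (31.2% to 42.0%), and Hopx in 34.4% (30.3% to 38.7%) and 37.4% (32.1% to 42.9%). Klrc1 was found in 26.1% and 24.0%, Il18rap in 11.0% and 9.66%, Il7r in 27.9% (24.0% to 31.9%) and 38.6% (33.3% to 44.2%), and Cxcr6 in 31.1% and 32.7%. Without thinning, these shares were 96.4% and 96.3% for Nkg7, 56.6% and 59.8% for Gzmk, 46.1% and 57.0% for Hopx, 31.8% and 51.8% for Il7r, and 46.2% and 48.5% for Cxcr6. In B cells thinned alike, Hopx was found in 5.86% and 5.12%, and Gzmk in 0.132% and 0.104%. A missing transcript at this depth does not show that a cell lacks it.

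Within the members, S1pr1 and Lef1 were found in a higher share of the cells with an Il7r UMI than of those without, and the intervals did not overlap in either library. Cells with an Il7r UMI had an S1pr1 UMI in 35.4% (27.6% to 43.8%) and 45.2% (36.2% to 54.3%) of cases, and cells without one in 12.6% (9.41% to 16.4%) and 15.2% (10.5% to 21.0%). Lef1 was found in 42 of 144 and 31 of 124 of the cells with Il7r, and in 61 of 373 and 22 of 197 of those without. Cxcr6 went the other way, in 18.8% and 24.2% of the cells with Il7r and 35.9% and 38.1% of those without. Rgs1 was found in 124 of 161 (69.7% to 83.3%) and 69 of 105 (55.8% to 74.7%) of the cells with Cxcr6, and in 178 of 356 and 106 of 216 of those without. S1pr1 was found in 10.6% (6.27% to 16.4%) and 23.8% (16.0% to 33.1%) of the cells with Cxcr6, and in 22.8% (18.5% to 27.5%) and 28.2% (22.3% to 34.7%) of those without, intervals that overlap in the second library. For Cxcr6 with Lef1 the intervals overlapped in both.

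Hopx was found in 41.3% and 51.3% of the cells with a Gzmk UMI and in 29.3% and 29.4% of those without. Cells with an Ifng UMI had Ccl4 in 59.2% (50.6% to 67.3%) and 35.3% (24.1% to 47.8%), against 32.8% (28.1% to 37.8%) and 20.9% (16.1% to 26.5%) of those without. Cells with a Gzmk UMI had Ccl4 in 45.7% (39.1% to 52.5%) and 32.5% (24.1% to 41.8%), against 35.7% (30.2% to 41.5%) and 19.1% (14.0% to 25.2%), intervals that overlap in both libraries, as do those of Gzmk with Gzmb. For Ikzf2, the transcription factor Helios, the order was reversed: cells with an Ikzf2 UMI had Klrd1 in 24.4% and 21.2%, against 43.6% and 34.2%, on only 45 and 52 cells. Of 25 pairs counted in each library, the intervals with and without the first gene overlapped in 16 and 22, and those named here were picked after their values were seen. Among the other named pairs they overlapped for Ikzf2 and Klrd1 in both libraries, for Gzmk and Hopx in the WT NOD library, and for Ifng with Ccl4, Cxcr6 with Rgs1 and Il7r with Cxcr6 in the other.

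**Figure D3:**
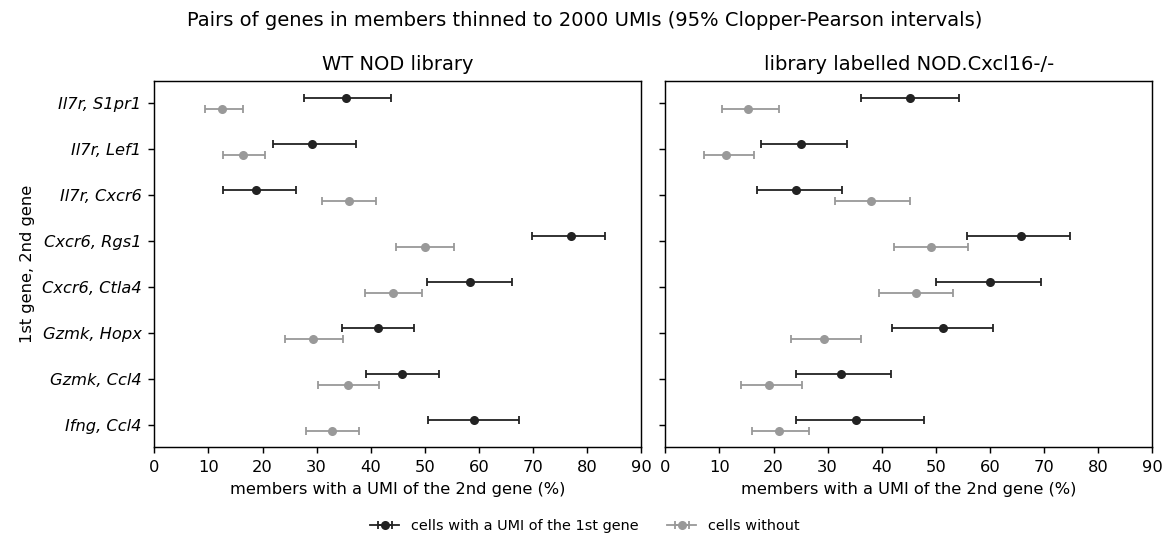
Members with a UMI of a second gene (x axis, percent) among members with (black) and without (grey) a UMI of a first gene, for 8 pairs of genes (y axis) and each library (panels), at 2000 UMIs per cell, with points for the share and bars for 95% Clopper-Pearson intervals. S1pr1 is found in 35.4% and 45.2% of the cells with Il7r and in 12.6% and 15.2% of those without, and Cxcr6 is less frequent in cells with Il7r.

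Members were also ordered by their Ccl5 share. Gzmk was higher with it, from 54.6 (29.9 to 91.7) and 41.1 CPM in the cells with under 20 Ccl5 UMIs per 10000 (35 and 22 cells) to 450 and 454 CPM in those with at least 200 (226 and 108 cells). Hopx went from 66.3 and 41.1 CPM to 383 and 462 CPM, Cxcr6 from 19.5 and 118 CPM to 471 and 652 CPM, Gzma from 11.7 and 29.4 CPM to 257 and 470 CPM, and Nkg7 from 675 and 1034 CPM to 2647 and 2614 CPM. Ccr7 went the other way, from 281 and 529 CPM to 34.1 and 30.4 CPM. Il7r had no such order, at 293, 233, 305 and 214 CPM over the 4 bins of the WT NOD library and 241, 372, 460 and 209 CPM in the other. A single cell held 60 of the 218 Ccr7 UMIs of the library labelled NOD.Cxcl16-/-. The bins differ in depth, from medians of 6837 and 6577.5 UMIs at the low end to 4109.5 and 4184 at the high end, and a Ccl5 share has the same UMI total below it as the CPM of each gene.

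**Figure D4:**
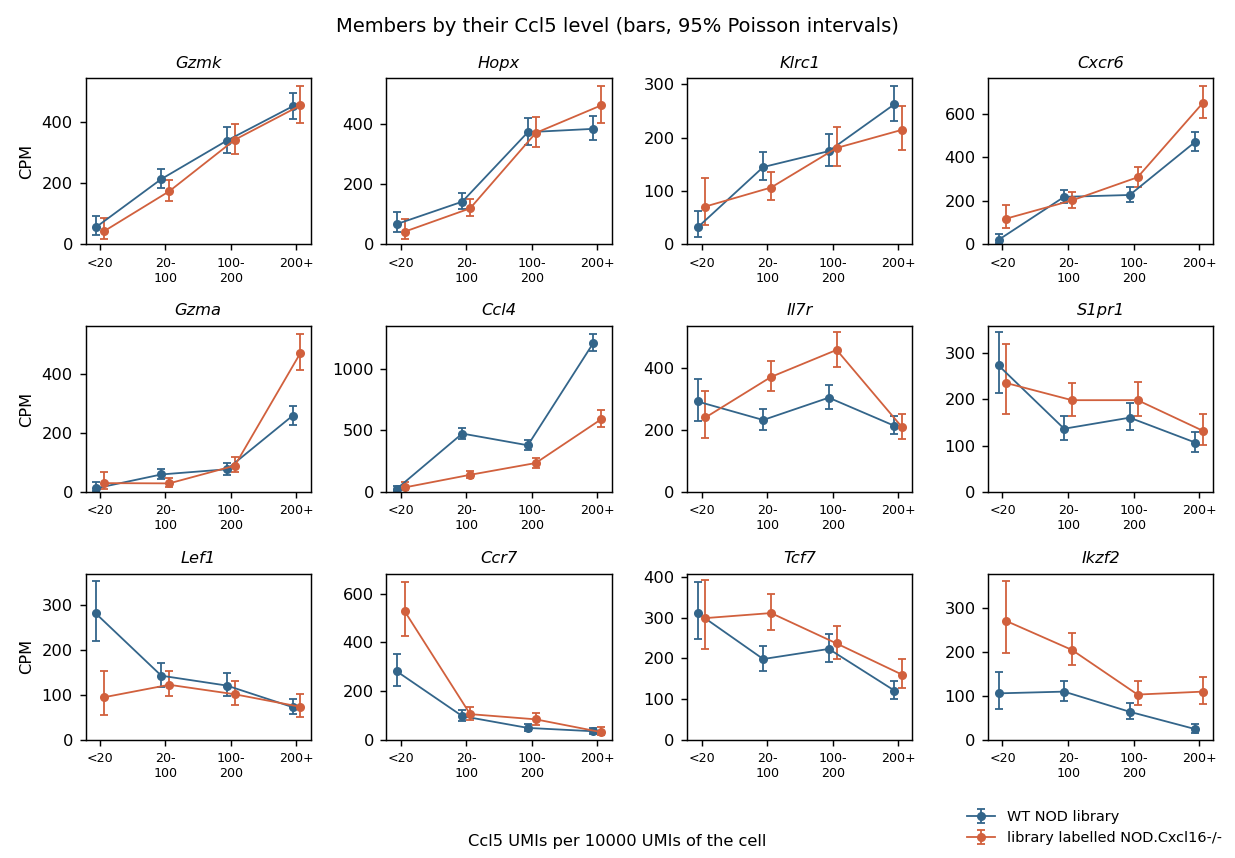
CPM of 12 genes (y axes, linear) in members grouped by their Ccl5 UMIs per 10000 UMIs of the cell (x axes; under 20, 20 to 100, 100 to 200 and at least 200), with a line for each library and bars for 95% Poisson intervals. Gzmk and Hopx are higher in each later bin, while Ccr7 is lower in each later bin.

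Between the libraries, a gene was called at a 1.5-fold difference and an average of at least 20 CPM. Of 5376 genes, 235 (4.37%) were called, 160 higher in the library labelled NOD.Cxcl16-/- (2.98%) and 75 lower (1.4%). With ratios centred on their median log2 of 0.05, the split was 106 higher and 111 lower. None of the markers of the members was called. Hopx differed by a log2 ratio of 0.00 (-0.16 to 0.16), Gzmk by -0.13 (-0.29 to 0.03) and Il18rap by -0.09 (-0.45 to 0.27). Klrc1 differed by -0.24 (-0.46 to -0.03) and Il7r by 0.45 (0.29 to 0.61), intervals that leave out 0. None of 14 cytotoxic genes, 6 killer lectin-like receptor genes and 16 memory and homing genes was called. Klrd1 (-0.55, -0.71 to -0.40) and Klrk1 (-0.50, -0.74 to -0.27) came nearest among the receptors, and the median over that list was -0.30. Cxcr6, the receptor of CXCL16, was at 288 and 346 CPM, a log2 ratio of 0.26 (0.11 to 0.41).

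Of 8 cytokine and chemokine genes tested, 3 were called lower in the library labelled NOD.Cxcl16-/- (Ccl4, Ccl3 and Cxcl10) and none higher. Only Ccl4 of these 3 kept its call in every alternative. Ccl4 stood at 656 (627 to 687) and 277 (254 to 302) CPM, a log2 ratio of -1.24 (-1.39 to -1.10), and kept its call in all 13 alternatives, between -1.42 and -0.77. Ccl4 was found in 40.04% (35.8% to 44.4%) and 24.0% (19.4% to 29.0%) of members at 2000 UMIs, against 2.96% and 3.24% of B cells, and in 49.4% and 38.4% without thinning. In the other sets Ccl4 stood at 33.1 and 35.7 CPM in the Ccl5-low cells, 1125 and 1063 CPM in those with Entpd1 or Havcr2 and 378 and 262 CPM in those with Xcl1 or Cd160. Ccl3 stood at 56.5 and 24.2 CPM, a log2 ratio of -1.19 (-1.74 to -0.74) that was -0.52 with the thinned gate. Cxcl10 stood at 97.2 and 52.1 CPM (-0.89, -1.25 to -0.56), but its ratio was -0.40 among members with at least 20 Ccl5 UMIs. Ifng was at 205 and 139 CPM (-0.56, -0.78 to -0.35), just short of the call.

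Interferon-response genes were mostly lower: 5 of 22 tested were called lower and none higher, 19 had a negative ratio, and the median was -0.39. Ifit3 stood at 44.2 and 12.4 CPM (-1.76, -2.55 to -1.19), Isg15, a ubiquitin-like protein, at 60.0 and 22.0 CPM (-1.41, -1.97 to -0.95) and Ifi27l2a at 1727 and 1094 CPM (-0.66, -0.73 to -0.58). These 3 kept their calls in all 13 alternatives, and the list's median stayed between -0.55 and -0.23. In the other CD8 T cells, Isg15 stood at 50.6 and 36.4 CPM in the Ccl5-low cells, 81.0 and 48.4 CPM in those with Entpd1 or Havcr2 and 35.7 and 16.8 CPM in those with Xcl1 or Cd160. Ifit3 stood at 33.1 and 14.0 CPM, 28.0 and 6.91 CPM, and 20.8 and 3.94 CPM in the same 3 sets. In B cells Isg15 had a higher value in the second library, 19.1 and 24.98 CPM. Ifit3 (9.29 and 1.48 CPM) and Ifi27l2a (561 and 274 CPM) had lower values there. Rtp4 and Xaf1 made up the 5. Rtp4 lost its call with the thinned gate (-0.31) and Xaf1 in 3 alternatives.

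Some receptors and transcription factors were higher in the library labelled NOD.Cxcl16-/-. Itgae, the integrin chain CD103 of tissue-resident cells, stood at 13.3 (9.44 to 18.3) and 28.5 (21.3 to 37.3) CPM, a log2 ratio of 1.04 (0.47 to 1.74), and kept its call in all 13 alternatives on 38 and 53 UMIs. Ikzf2 stood at 67.4 (58.2 to 77.6) and 154 (137 to 173) CPM (1.18, 0.93 to 1.47), but at a ratio of 0.16 with the thinned gate. Tnfrsf9 was at 46.0 and 80.1 CPM (0.79, 0.45 to 1.15; 0.23 with the thinned gate), Ifngr1 at 404 and 611 CPM (0.60, 0.48 to 0.72; under 1.5-fold in 4 alternatives) and Zeb1 at 199 and 324 CPM (0.70, 0.54 to 0.87; 0.50 with the thinned gate).

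**Figure D5:**
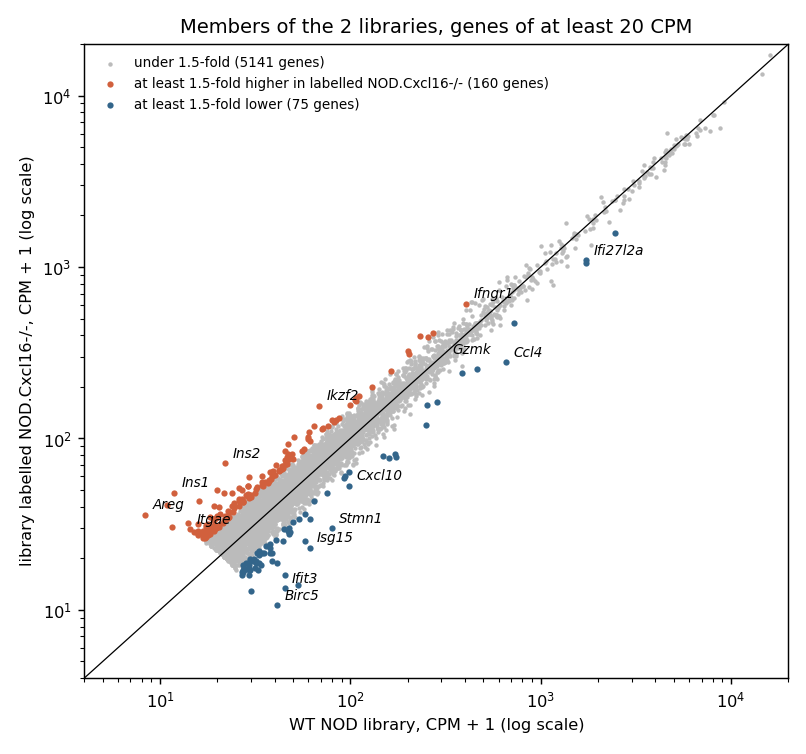
CPM + 1 of each gene in the members of the WT NOD library (x axis, log scale) and of the library labelled NOD.Cxcl16-/- (y axis, log scale), for 5376 genes of at least 20 CPM on average, with the 160 genes at least 1.5-fold higher in the second library in orange, the 75 at least 1.5-fold lower in blue and a diagonal for equal levels. Ccl4 (656 and 277 CPM) and Isg15 (60.0 and 22.0 CPM) lie below the diagonal, Ins2 (21.1 and 70.9 CPM) above it and Gzmk near it.

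Of the 10 most lowered genes between the libraries, 4 are genes of cell division, for which no list had been set, so they carry no count over such genes. Birc5 stood at 40.4 and 9.67 CPM (-1.95), Ube2c at 52.0 and 12.9 CPM (-1.93), Pclaf at 44.2 and 15.05 CPM (-1.49) and Stmn1 at 79.0 and 29.0 CPM (-1.41). With the thinned gate these ratios were -0.20, -0.16, -0.19 and -0.50, so none was called. Of the UMIs of these genes, 62.9% (386 of 614) and 46.8% (58 UMIs) lay in members without any Mki67 or Top2a UMI, which were 84.0% (534) and 84.8% (278) of the members. The members with 1 such UMI thus held more of these transcripts than their share of cells.

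Islet transcripts had higher values in the library labelled NOD.Cxcl16-/- in the members and in B cells, but not in every set. Ins1 and Ins2, the insulin genes of beta cells, stood at 10.9 and 47.3 CPM and at 21.1 and 70.9 CPM in the members, and at 10.5 and 37.1 CPM and at 19.5 and 67.4 CPM in B cells. In the cells with Entpd1 or Havcr2 the order was reversed, with Ins1 at 66.1 and 45.9 CPM and Ins2 at 114 and 83.5 CPM. Gm10260 had lower values in the library labelled NOD.Cxcl16-/-, 173 and 76.9 CPM in the members and 150 and 58.1 CPM in B cells. Areg (7.37 and 34.9 CPM) and Slpi (9.83 and 39.8 CPM) rested on few cells: a single cell held 44 of 65 Areg UMIs and another 37 of 74 Slpi UMIs in the library labelled NOD.Cxcl16-/-. Of Ifitm1, 19.0 and 48.9 CPM, 10 cells held 96.7% of the UMIs of that library. The class II genes Cd74 (721 and 470 CPM) and H2-Aa (284 and 163 CPM) were lower, but among members with at least 20 Ccl5 UMIs the log2 ratios were 0.44 and 0.36. Of the H2-Aa UMIs of the members, 10 cells held 45.1% and 82.5%.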

How the data were processed

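The deposited matrices hold raw UMI counts, made by the authors with Cell Ranger 7.0.1 on mm10, per the submitters' processing notes; the annotation and the treatment of introns are not given in the sources used here. Members were found by the rule in the report on unnormalised counts. UMIs were summed per library and set and given as counts per 1000000 (CPM), with exact Poisson intervals; ratios took 1 CPM added, and shares of cells were given with Clopper-Pearson intervals after thinning to 2000 UMIs. With 1 library per group no test was run. Doublet scores came from simulated doublets, as Scrublet does, and the highest were marked at 0.8% for each 1000 barcodes; marked barcodes were removed only as an alternative.

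The members, gene lists and settings were chosen with earlier results of these data known. Named genes are those of the lists and, beyond them, the 10 most changed called genes in each direction. From these 10, genes of the gate and mitochondrial, ribosomal, immunoglobulin and T-cell receptor genes were left out by their symbols alone. Itga1 and variable genes are described apart. The scripts that make the calls were checked on simulated counts. Of 13 alternatives, 2 were chosen after seeing the data. Gene IDs matched GENCODE M21 for 32235 of 32285. Python 3.11.15, numpy 2.4.6, scipy 1.17.1, pandas 2.3.3 and scikit-learn 1.9.0 were used. Some genes of the lists are not reported here.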

Additional observations from a re-analysis of the deposited data

Results flagged for a closer look

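In 5 cases the members differed from another set in opposite directions in the libraries, by at least 1.5-fold each way; these differences were not tested, and each rests on 1 library per group. Over the Ccl5-low cells, Atf3, a stress-response transcription factor, had a log2 ratio of 1.37 and -1.003 (WT NOD first; 26.7 and 16.1 CPM in the members, 9.72 and 33.3 CPM in the Ccl5-low cells). H2-Aa, a class II chain, had ratios of 0.63 and -0.65 (284 and 163 CPM against 183 and 257 CPM), and 10 cells held 45.1% and 82.5% of its UMIs in the members. Rap2b had -0.86 and 0.65, and Kidins220 had -0.63 and 0.60. Over the cells with Xcl1 or Cd160, Slpi had -0.90 and 1.71 (9.83 and 39.8 CPM against 19.2 and 11.5 CPM), and 37 of its 74 UMIs in the members of the library labelled NOD.Cxcl16-/- lay in 1 cell.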

How the results depend on the processing

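The share difference of the members was -1.29 points with at least 20 Ccl5 UMIs, -9.56 with the gate on thinned counts and -3.17 over barcodes of at least 2000 UMIs, an alternative added after seeing the data. Between the libraries, 553 genes were called in members also without other-lineage UMIs, 476 by the mean CPM of each cell, 970 at 5 CPM, 32 at 100 CPM and 100 with 10 CPM added. Against the Ccl5-low cells, 78 were called with the thinned gate, 405 at 5 CPM and 61 at 100 CPM. Against the cells with Entpd1 or Havcr2, 48 were called with the thinned gate, 35 by the mean CPM, 244 at 5 CPM, 25 at 100 CPM and 54 with 10 CPM added; against those with Xcl1 or Cd160, 119, 12 and 30 in the last 3 settings. The thinned gate drops barcodes under 2000 UMIs and admits cells that the full counts assign to other sets; other causes were not tested. The sign changed in 3 ratios: Cd74 (0.44) and H2-Aa (0.36) between libraries at 20 Ccl5 UMIs, and Gzmb over the cells with Entpd1 or Havcr2 (0.23) with the thinned gate. Of the other single-gene ratios, 671 between libraries and 2984 between sets lay within the counting interval of the main ratio or did not change. The other 94 and 343 lay outside it. A ratio within that interval could still lose its call.

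At 4000 UMIs per cell the shares with a UMI in the WT NOD library were 52.7% for Hopx, 59.1% for Gzmk, 40.6% for Klrc1, 40.9% for Il7r and 21.5% for Il18rap, and unthinned 46.1% (Hopx), 56.6% (Gzmk), 40.3% (Klrc1) and 19.97% (Il18rap). In the library labelled NOD.Cxcl16-/- they were 49.0%, 53.1%, 32.2%, 53.1% and 19.7% at 4000 UMIs, and 57.0%, 59.8%, 38.4%, 51.8% and 23.5% unthinned, in the same order; a share of cells with a UMI grows with depth by construction.

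No paired analysis was possible because each group has 1 library, which also leaves no replicate to drop. The number of mice is unknown.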
